A study of Mus musculus with 2 samples.

Results

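The alpha and dense granule biogenesis machinery was taken as 34 named genes of the 43346 Ensembl genes in the deposited tables, and all 34 were found by symbol. They are the subunits of the sorting complexes BLOC-1, BLOC-2, BLOC-3, AP-3, HOPS and CHEVI, the small GTPases RAB32 and RAB38, the BEACH-domain proteins NBEAL2 and LYST, and 4 transporters of dense granules. The rule names the genes by their roles and uses no measured value. The data were 2 polyA RNA-seq libraries, replicate 2 and replicate 1, of the same group of mouse megakaryocytes, the large marrow and fetal liver cells whose fragments become platelets. The cells are labelled as primary cells from embryos of 14.5 days with the sexes pooled. No strain, genotype or treatment is named for either library, and both libraries cite the same biosample and donor. Their spread may therefore be partly technical. There was no condition to compare, so no test was made and the 2 libraries were set side by side.

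Platelets carry alpha granules, which hold adhesive proteins and growth factors, and dense granules, which hold serotonin, nucleotides and calcium. Both arise in megakaryocytes from endosomal intermediates, and dense granules belong with melanosomes to the lysosome-related organelles. BLOC-1, BLOC-2 and AP-3 sort membrane cargo toward these organelles, BLOC-3 is the exchange factor that activates RAB32 and RAB38, and HOPS and CHEVI tether membranes before fusion. Loss of BLOC or AP-3 subunits causes Hermansky-Pudlak syndrome, with pale coat and bleeding in the matching mouse mutants. Loss of NBEAL2 causes gray platelet syndrome, in which alpha granules lack their cargo, and loss of either CHEVI subunit also depletes alpha granules.

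The upstream sequences of 5 members are shown, because these genes were among those furthest apart between the libraries. They were picked after their values were seen, from the 26 members with an entry among the RefSeq promoters of assembly GRCm38.p6 (29 promoters). Each line gives the 250 bases before the start annotated by RefSeq, 5′ to 3′ on the gene's strand. The RefSeq start lay at the outer start of the gene in GENCODE M21, which gave the gene positions used here, for *Slc35d3*. It lay 12 bases downstream of it for *Hps4*, 23 for *Vps33a*, 58 for *Rab32* and 511 for *Bloc1s1*, so the *Bloc1s1* window is inside the gene as M21 annotates it. Capitals mark a match to TGATAA or CACGTG on either strand, and lines without capitals hold no match to any of the 5 motifs searched. By counts scaled for the depth of each library, *Hps4*, *Slc35d3* and *Rab32* were higher in replicate 2, and *Bloc1s1* and *Vps33a* were lower there.
Hps4 (chr5:112342845-112343094, plus strand): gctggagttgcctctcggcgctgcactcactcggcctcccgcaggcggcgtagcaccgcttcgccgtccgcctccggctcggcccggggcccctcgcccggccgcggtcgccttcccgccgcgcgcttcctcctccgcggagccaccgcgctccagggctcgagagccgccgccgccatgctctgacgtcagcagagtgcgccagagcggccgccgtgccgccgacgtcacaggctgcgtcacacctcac
Slc35d3 (chr10:19851460-19851709, minus strand): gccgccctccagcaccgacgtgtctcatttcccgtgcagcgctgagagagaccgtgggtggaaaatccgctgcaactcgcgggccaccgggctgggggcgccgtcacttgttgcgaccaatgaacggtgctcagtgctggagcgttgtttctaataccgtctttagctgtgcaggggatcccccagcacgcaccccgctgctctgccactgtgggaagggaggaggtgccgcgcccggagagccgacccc
Rab32 (chr10:10558208-10558457, minus strand): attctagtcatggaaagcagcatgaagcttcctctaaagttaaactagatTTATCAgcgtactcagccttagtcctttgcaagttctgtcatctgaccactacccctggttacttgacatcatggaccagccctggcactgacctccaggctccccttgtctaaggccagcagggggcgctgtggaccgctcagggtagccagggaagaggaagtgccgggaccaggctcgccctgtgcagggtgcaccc
Bloc1s1 (chr10:128923525-128923774, minus strand): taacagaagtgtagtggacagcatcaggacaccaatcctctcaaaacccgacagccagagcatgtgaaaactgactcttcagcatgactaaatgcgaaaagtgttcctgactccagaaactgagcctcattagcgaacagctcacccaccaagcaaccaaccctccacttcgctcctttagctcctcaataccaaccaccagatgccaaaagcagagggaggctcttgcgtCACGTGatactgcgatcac
Vps33a (chr5:123573016-123573265, minus strand): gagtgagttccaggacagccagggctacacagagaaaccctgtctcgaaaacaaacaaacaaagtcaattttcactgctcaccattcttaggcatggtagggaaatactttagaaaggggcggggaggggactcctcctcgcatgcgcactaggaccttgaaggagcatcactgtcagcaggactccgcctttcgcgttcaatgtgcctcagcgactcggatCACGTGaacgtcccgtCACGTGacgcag

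The motifs searched on both strands of these 250-base windows were AGATAA and TGATAA (letters of GATA sites), CCGGAAG (ETS), TGAGTCA (NF-E2 and AP-1) and CACGTG (an E-box). CACGTG was present in 7 of the 29 member promoters, against 6.83% of 19901 promoters of protein coding genes, and the 7 genes were *Abcc4*, *Bloc1s1*, *Bloc1s3*, *Hps3*, *Hps5*, *Vps16* and *Vps33a*. Either GATA motif was present in 8 of the 29, against 14.0% of protein coding promoters. For *Abcc4* and *Vipas39* the match belonged to a RefSeq start 29288 and 2012 bases downstream of the outer M21 start. The other window of each of these genes, near the outer start, held no GATA motif. CCGGAAG was present in 3 of the 29, against 9.33%, and TGAGTCA in 0 of the 29, against 4.05%. A match describes the letters in the window only, and CACGTG reads the same on both strands.

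Most of the machinery was transcribed in these cells, but at levels that differed widely between and within complexes. A mean of at least 1 TPM (TPM is a level per transcript length, scaled to a common total in each library) was reached by 29 of the 34 members, against 22.7% of all Ensembl genes and 42.5% of the 21474 protein coding genes. The other 5 were *Hps3*, *Hps5*, *Vps41*, *Lyst* and *Slc18a2*. Within single libraries, 24 members reached 1 TPM in replicate 2, against 37.7% of protein coding genes. In replicate 1, 31 members did, against 43.6%. *Bloc1s5*, *Bloc1s6*, *Ap3m1*, *Vps16* and *Vps33a* thus reached the mean only through replicate 1. The median level of all 34 members was 6.66 TPM in replicate 2, against 8.325 TPM in replicate 1. Over all protein coding genes, also with no minimum, it was 0 TPM in replicate 2, against 0.36 TPM in replicate 1. Over only the 9858 genes that reached 1 TPM it was 7.54 TPM in replicate 2, against 11.3 TPM in replicate 1. The members were not filtered in that way. The 5 highest members held 82.7% of the summed member TPM in replicate 2, against 72.5% in replicate 1. Of the 6 highest members in each library, 5 were shared, namely *Hps4*, *Slc35d3*, *Hps1*, *Nbeal2* and *Bloc1s1*. Across the 34 members the log2(TPM + 1) values of the libraries had a Pearson correlation of 0.891 and a Spearman correlation of 0.921. Over the 9858 genes that reached 1 TPM these were 0.816 and 0.764. That set leaves out genes under 1 TPM, while the 34 members include 5, so these correlations are not compared like for like. They describe agreement across genes, which are not independent replicates.

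**Figure D1:**
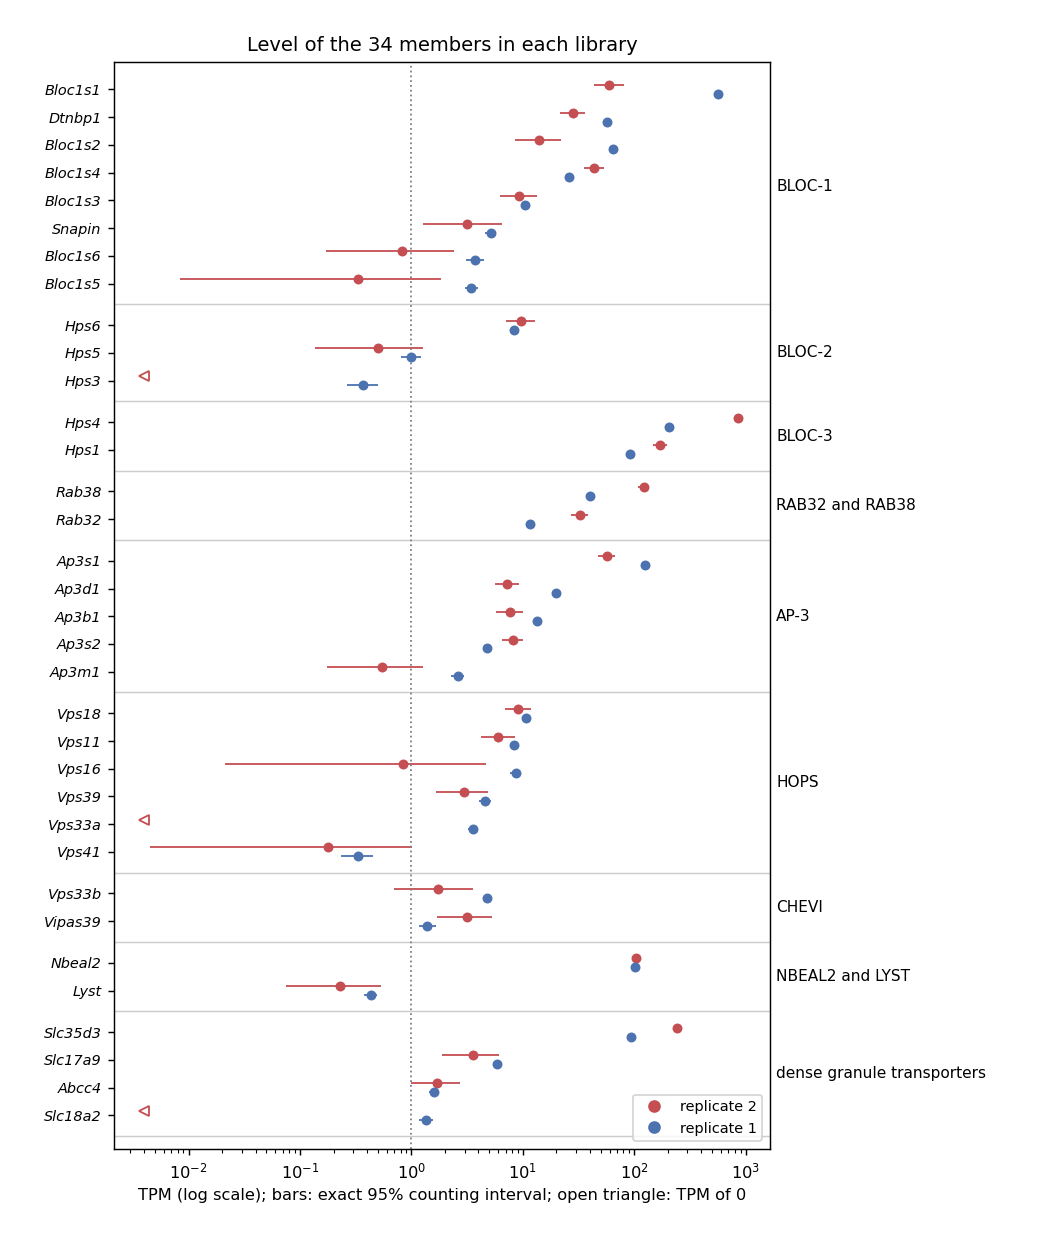
TPM of each of the 34 members (log axis) by complex, with replicate 2 in red above replicate 1 in blue and exact 95% counting intervals. Levels run from 0 to 849.64 TPM in replicate 2 and from 0.33 to 566.12 TPM in replicate 1, and 3 members have a TPM of 0 in replicate 2 (open triangles).

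Depth sets how far each value can be read. Replicate 2 held 2275922 expected counts and replicate 1 held 42099216, 18.5-fold more. Only 7 members had at least 100 counts in replicate 2, and 12 had fewer than 10. Where no fragment was counted, up to 3 counts remain possible, which is 1.32 CPM (counts scaled to a common total) in replicate 2 and 0.0713 CPM in replicate 1. Intervals and this limit cover counting error only. The labelled cell type fitted its markers, since all 12 megakaryocyte genes listed were present in both libraries. Their summed TPM was 22923 in replicate 2, against 16829.5 in replicate 1.

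The 8 subunits of BLOC-1 each had counts in both libraries, at very unequal levels and for 2 of them on 3 counts or fewer in replicate 2. *Bloc1s1*, a subunit shared with the lysosome-positioning complex BORC, was the highest in both libraries, at 59.65 TPM in replicate 2, against 566.12 TPM in replicate 1. *Dtnbp1*, which encodes dysbindin and is mutated in sandy mice, had 28.37 TPM in replicate 2, against 56.88 TPM in replicate 1. *Bloc1s2* had 14.00 TPM in replicate 2, against 63.94 TPM in replicate 1. *Bloc1s4*, the gene of cappuccino mice, was the only subunit with a higher TPM in replicate 2, at 43.68 TPM in replicate 2, against 26.02 TPM in replicate 1. *Bloc1s3* was near 10 in both, with 9.31 TPM in replicate 2, against 10.48 TPM in replicate 1.

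The other 3 BLOC-1 subunits were the lowest in both libraries. *Snapin*, also a BORC subunit, had 3.18 TPM in replicate 2, against 5.15 TPM in replicate 1. *Bloc1s6*, which encodes pallidin, the core subunit lost in pallid mice, had 0.83 TPM in replicate 2 from 3 counts, against 3.74 TPM in replicate 1 from 124 counts. *Bloc1s5*, the gene of muted mice, had 0.33 TPM in replicate 2 from 1 count, against 3.46 TPM in replicate 1 from 221 counts. The order of levels was kept between the libraries in 25 of 28 pairs of BLOC-1 subunits. No count of *Bloc1s6* was placed on its protein coding transcript in either library, as all fell on transcripts typed as processed transcripts.

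In BLOC-2, only *Hps6* (mutated in ruby-eye mice) was clearly present, with 9.72 TPM in replicate 2, against 8.33 TPM in replicate 1. *Hps5* had 0.50 TPM in replicate 2, against 1.00 TPM in replicate 1. *Hps3* (mutated in cocoa mice) had 0 counts in replicate 2 and 42 counts, or 0.37 TPM, in replicate 1. At the depth of replicate 2 the scaled replicate 1 level of *Hps3* would give 1.68 counts, so its absence there was not detectable as a difference. The same order of the 3 subunits was found in both libraries.

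BLOC-3 had the highest median level of the 9 groups of members, at 510.25 TPM in replicate 2, against 148.22 TPM in replicate 1. *Hps4*, the gene of light ear mice, on chromosome 5 from 112343083 to 112378414 (GRCm38), had 849.64 TPM in replicate 2, against 205.03 TPM in replicate 1. That placed it 1st of the 34 members in replicate 2 and 2nd in replicate 1, at the 99.1 and 96.8 percentile of protein coding genes in those libraries. Its partner *Hps1*, the gene of pale ear mice, had 170.86 TPM in replicate 2, against 91.41 TPM in replicate 1. Counted over protein coding transcripts alone, *Hps4* had 377.77 TPM in replicate 2, against 84.54 TPM in replicate 1, and *Hps1* had 19.40 TPM in replicate 2, against 24.85 TPM in replicate 1. *Hps1* therefore ranked below *Hps4* on every one of these scales, and the coding level of *Hps1* was much lower than its gene level.

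Both GTPases that BLOC-3 activates were present. *Rab38*, the gene of chocolate mice, had 122.02 TPM in replicate 2, against 40.46 TPM in replicate 1. *Rab32* had 32.40 TPM in replicate 2, against 11.66 TPM in replicate 1. Each has a single annotated transcript, so these levels do not turn on how counts were divided among transcripts. *Rab38* was the higher of the pair in both libraries, by 3.77-fold in replicate 2 and 3.47-fold in replicate 1.

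AP-3, the adaptor of cargo leaving endosomes, had all 5 of its listed subunits at 1 TPM or more on average. The sigma subunit *Ap3s1* led, with 56.60 TPM in replicate 2, against 125.01 TPM in replicate 1. Its paralog *Ap3s2* had 8.19 TPM in replicate 2, against 4.79 TPM in replicate 1. The large subunits *Ap3d1* (mutated in mocha mice) and *Ap3b1* (mutated in pearl mice) were close to each other, at 7.28 and 7.65 TPM in replicate 2, against 19.97 and 13.33 TPM in replicate 1. The mu subunit *Ap3m1* was the lowest, with 0.54 TPM in replicate 2 from 5 counts, against 2.60 TPM in replicate 1 from 234 counts. Of the paralogs known from neurons, *Ap3m2* had 0 counts in replicate 2 and 0.36 TPM in replicate 1, and *Ap3b2* had 0 counts in both.

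HOPS shares its core (VPS11, VPS16, VPS18 and VPS33A) with the early-endosome tether CORVET, while VPS39 and VPS41 belong to HOPS. *Vps18* had 9.07 TPM in replicate 2, against 10.71 TPM in replicate 1, and *Vps11* had 6.04 TPM in replicate 2, against 8.32 TPM in replicate 1. *Vps39* had 2.98 TPM in replicate 2, against 4.60 TPM in replicate 1. These 3 each had at least 15 counts in replicate 2, unlike the other 3 subunits. *Vps16* had 1 count (0.84 TPM) in replicate 2 and 263 counts (8.61 TPM) in replicate 1. Retained-intron transcripts held 100% of its TPM in replicate 2, against 75.1% in replicate 1. *Vps33a*, the gene of buff mice, had 0 counts in replicate 2 and 552 counts (3.54 TPM) in replicate 1. *Vps41* was low in both, with 0.18 TPM in replicate 2 from 1 count, against 0.33 TPM in replicate 1 from 39 counts.

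Of the CHEVI pair, *Vps33b* had 1.74 TPM in replicate 2, against 4.78 TPM in replicate 1. Its partner *Vipas39* had 3.13 TPM in replicate 2, against 1.39 TPM in replicate 1. The order of the 2 subunits was thus opposite in the libraries, on 7 and 14 counts in replicate 2. The protein coding transcript of *Vps33b* held 0 of its counts in replicate 2 and 291.69 in replicate 1.

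*Nbeal2*, on chromosome 9 from 110624789 to 110654161, had nearly the same TPM in both libraries. It had 104.50 TPM in replicate 2, against 101.85 TPM in replicate 1, a mean of 103 ± 1.87 TPM (SD, n = 2). *Lyst*, the related BEACH gene mutated in beige mice, had 0.23 TPM in replicate 2 from 5 counts, against 0.43 TPM in replicate 1 from 196 counts. The 2 genes of the same protein family thus differed by 454-fold in replicate 2 and 237-fold in replicate 1.

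The 4 dense granule transporters ran from among the highest members to the lowest. *Slc35d3*, a nucleotide sugar transporter relative whose loss depletes dense granules in mice, on chromosome 10 from 19847916 to 19851459, had 242.32 TPM in replicate 2, against 94.07 TPM in replicate 1. *Slc17a9*, the vesicular nucleotide transporter, had 3.57 TPM in replicate 2, against 5.90 TPM in replicate 1. *Abcc4*, an exporter of nucleotides, had 1.71 TPM in replicate 2, against 1.59 TPM in replicate 1. *Slc18a2*, the vesicular monoamine transporter that loads serotonin, had 0 counts in replicate 2 and 194 counts (1.35 TPM) in replicate 1. Its relative *Slc18a1* had 0 counts in replicate 2 and 5 counts in replicate 1. *Slc6a4*, which takes up serotonin at the plasma membrane, was far higher than either, with 91.50 TPM in replicate 2, against 126.43 TPM in replicate 1.

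Scaled counts were then compared between the libraries, as the ratio of replicate 2 to replicate 1 after TMM scaling. Among the 28 members whose mean count reached 100, 5 were at least 2-fold higher in replicate 2, while 15.7% of the 8194 genes at that count were. A further 7 were at least 2-fold lower in replicate 2, while 33.8% of genes were. The median log2 ratio was −0.34 over the members and −0.30 over all these genes. These shares lie near those of all genes, so the members as a list did not stand apart. The minimum is on unscaled counts, of which replicate 1 held 18.5-fold more. It therefore rests mainly on replicate 1 and leans toward genes lower in replicate 2. At a mean of at least 10 CPM, 3 of 18 members were lower, against 24.2% of genes, and 5 were higher, against 20.1%. The all-gene median log2 ratio was then 0.03.

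**Figure D2:**
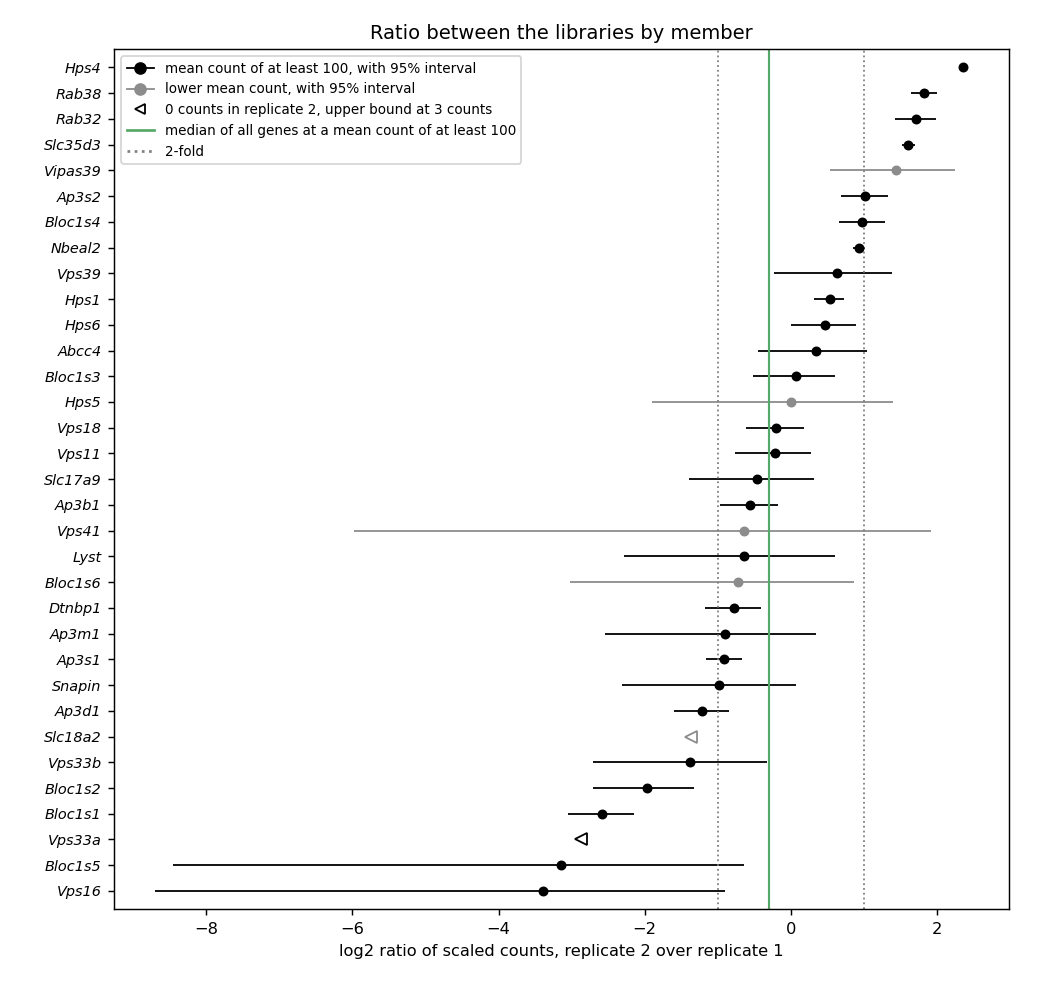
log2 ratio of TMM-scaled counts, replicate 2 over replicate 1, for 33 of the members, with exact 95% intervals. *Hps3* is left out because its 0 in replicate 2 could not be told from its level in replicate 1. Ratios spread to both sides of the all-gene median of −0.30 (green line).

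The 5 higher members came from BLOC-3, its GTPases, AP-3 and the transporters. *Hps4* had 2257 counts in replicate 2 and 11010 in replicate 1, a ratio of 5.14 (exact 95% interval 4.91 to 5.38). *Rab38* had 300 counts in replicate 2 and 2120 in replicate 1, a ratio of 3.55 (3.13 to 4.01). *Rab32* had 118 counts in replicate 2 and 902 in replicate 1, a ratio of 3.28 (2.68 to 3.98). The intervals of these GTPases overlapped. *Slc35d3* had 1117 counts in replicate 2 and 9200 in replicate 1, a ratio of 3.04 (2.86 to 3.24). These 4 intervals lay wholly above 2-fold, and that of *Ap3s2*, with 86 counts in replicate 2 and 1064 in replicate 1, did not, at 2.03 (1.61 to 2.53). The BLOC-3 subunit *Hps1* did not follow *Hps4* in size, at 1.45 (1.25 to 1.66). *Nbeal2* was at 1.91 (1.80 to 2.02) by counts although its TPM was nearly equal. The mean length of its transcripts, weighted by their share of its TPM, was 6582 bases in replicate 2 and 4246 bases in replicate 1.

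The 7 lower members were 3 BLOC-1 subunits, 2 HOPS subunits, *Vps33b* and *Ap3d1*. *Bloc1s1* had 43 counts in replicate 2 and 6454.51 in replicate 1, a ratio of 0.167 (0.121 to 0.225). *Bloc1s2* had 19 counts in replicate 2 and 1862.97 in replicate 1, a ratio of 0.256 (0.154 to 0.400). *Ap3d1* had 62 counts in replicate 2 and 3598 in replicate 1, a ratio of 0.432 (0.330 to 0.555). The intervals of *Bloc1s1* and *Bloc1s2* lay wholly past 2-fold, and that of *Ap3d1* did not. *Vps33a*, at 0 counts in replicate 2, was at least 7.34-fold lower there, taking the limit of 3 counts in that library, and the exact 95% interval of its ratio reached up to 0.168. *Bloc1s5*, *Vps16* and *Vps33b* rested on 1, 1 and 7 counts in replicate 2, with ratios of 0.113 (0.0029 to 0.639), 0.095 (0.0024 to 0.536) and 0.385 (0.154 to 0.799). *Vps33a*, *Bloc1s5*, *Vps16* and *Vps33b* reached the count minimum through their replicate 1 counts, and each fell below a mean of 10 CPM. Below the count minimum, *Slc18a2* at 0 counts in replicate 2 was at least 2.58-fold lower there by the same limit, with an interval up to 0.481, and *Vipas39* had a ratio of 2.72 (1.45 to 4.73).

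The marker genes of other cell types differed between the libraries as well. The 11 macrophage markers summed to 229.45 TPM in replicate 2, with 4 at 0, and to 874.21 TPM in replicate 1, with 2 at 0. The 11 granulocyte markers summed to 150.23 TPM in replicate 2, with 6 at 0, and to 862.73 TPM in replicate 1, with none at 0. By summed TPM both of these lists were thus lower in replicate 2. The numbers at 0 also depend on depth. At the depth of replicate 2 the scaled replicate 1 levels of *Mrc1*, *Vcam1*, *Retnlg* and *S100a8* would give 0.04, 0.20, 0.56 and 1.56 counts. Their zeros there were thus not detectable as a difference. The 10 mast cell and basophil markers summed to 5.08 TPM in replicate 2, against 50.27 TPM in replicate 1, with *Fcer1a* and *Mcpt4* at 0 in both. The 8 erythroid markers summed to 13724.5 TPM in replicate 2, against 6939.87 TPM in replicate 1, nearly all of it globin. That direction came from *Hba-a1* alone among the globins, with 12715.5 TPM in replicate 2, against 4480.45 TPM in replicate 1, most of it on a retained-intron transcript. *Hbb-bt* had 513.36 TPM in replicate 2, against 1719.33 TPM in replicate 1, and *Hbb-bs* had 481.21 TPM in replicate 2, against 727.25 TPM in replicate 1. On coding transcripts the erythroid list summed to 809.83 TPM in replicate 2, against 2071.9 TPM in replicate 1, so its direction depended on the transcripts counted. These lists and the members share no gene, and the part of other cells in the members lower in replicate 2 was not tested. In bulk RNA, fewer cells of a type and less RNA per cell cannot be told apart.

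For the cells best known for this machinery outside blood, direct values were available. Of 7 melanocyte markers, *Tyrp1*, *Dct*, *Mlana* and *Slc45a2* were at 0 in both libraries, and the list summed to 0.34 TPM in replicate 2, against 2.19 TPM in replicate 1. Nearly all of the replicate 1 sum was *Mitf*, a transcription factor gene, with 0 counts in replicate 2 and 110 counts (2.00 TPM) in replicate 1. The 6 hepatocyte markers, listed because fetal liver is a site of blood formation, summed to 9.72 TPM in replicate 2, against 56.39 TPM in replicate 1. Nearly all of it was *Trf*, which encodes transferrin, with 7.90 TPM in replicate 2, against 54.71 TPM in replicate 1, while *Alb*, *Ttr* and *Serpina1a* were at 0 in both. The 6 neuron markers summed to 142.9 TPM in replicate 2, against 119.8 TPM in replicate 1, nearly all of it *Tubb3*.

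The deposited tables also divide each gene's level among its transcripts, and 17 members have several. For *Hps4*, the 570-base retained-intron transcript *Hps4-207* held 55.5% of the gene's TPM in replicate 2, against 58.8% in replicate 1. By counts it was the smaller share, since the 2836-base protein coding *Hps4-201* had 1886.61 of 2257 counts in replicate 2 and 8954.02 of 11010 in replicate 1. For *Hps1*, the 462-base transcript *Hps1-206*, typed as a target of nonsense-mediated decay, held 67.9% of the TPM in replicate 2, against 53.0% in replicate 1. Its coding transcripts together held 11.4% in replicate 2 and 27.2% in replicate 1. A short transcript raises a TPM more than a long one for the same count.

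**Figure D3:**
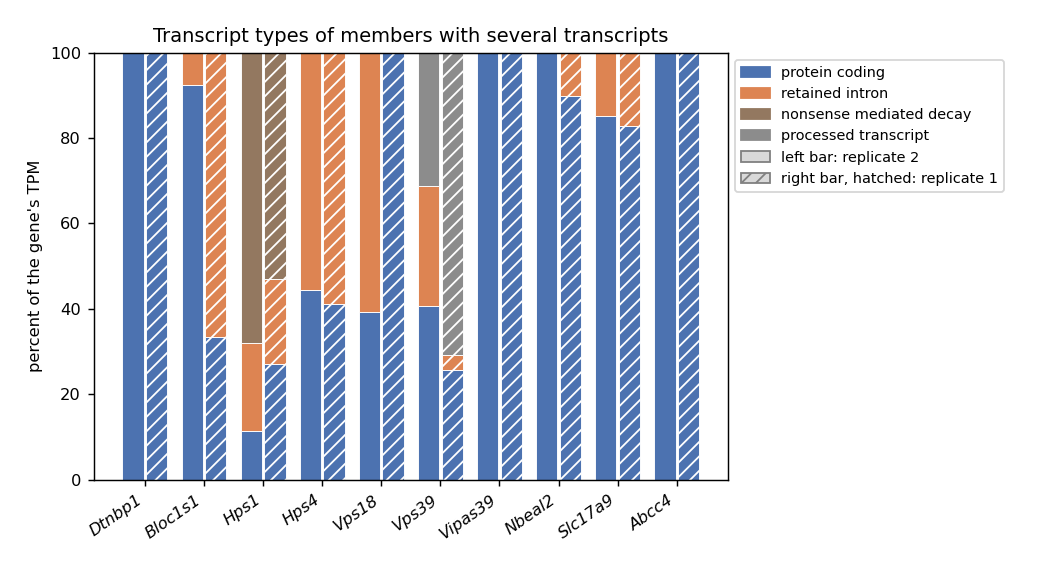
Percent of each gene's TPM by transcript type, replicate 2 (left bars) and replicate 1 (hatched right bars), for the 10 members with several transcripts and at least 10 counts in replicate 2. Non-coding transcript types hold most of the TPM of *Hps1* and *Hps4* in both libraries.

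Which transcript led differed between the libraries for most of the members that could be compared, on as few as 43 counts (*Bloc1s1*) in replicate 2. Of 6 members with several transcripts and a mean of at least 5 TPM, 2 (*Hps1* and *Hps4*) had the same leading transcript in both libraries, while 66.2% of 4695 such genes did. The leading transcript was protein coding in both libraries for 2 of the 6 (*Dtnbp1* and *Nbeal2*), while it was for 61.2% of genes. For *Bloc1s1*, the protein coding *Bloc1s1-201* held 92.3% of the TPM in replicate 2, against 30.6% in replicate 1, and the 361-base retained-intron *Bloc1s1-204* held 7.67% in replicate 2 and 66.7% in replicate 1. On coding transcripts alone *Bloc1s1* had 55.07 TPM in replicate 2, against 188.58 TPM in replicate 1, and the scaled ratio of coding counts was 0.332.

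For *Nbeal2*, the leading transcript was a long coding model in replicate 2 and a shorter one in replicate 1. *Nbeal2-206*, of 8782 bases with a coding length of 8229 bases, held 57.3% of the TPM in replicate 2, against 22.5% in replicate 1. *Nbeal2-205*, a 3303-base model whose annotated coding start is incomplete, held 37.8% in replicate 2 and 67.5% in replicate 1. For *Dtnbp1* all counts were on *Dtnbp1-202* in replicate 2 and all on *Dtnbp1-201* in replicate 1, models of 1305 and 1311 bases with the same coding length of 1056 bases. For *Vps18*, the retained-intron *Vps18-202* held 60.7% in replicate 2, from 31.17 counts, while *Vps18-201* held 100% in replicate 1.

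Some members overlap other genes, and whether the counting used strand is not given in the sources used here. *Bloc1s1* overlaps *Rdh5* on the same strand, and *Rdh5* had 80 counts in replicate 2 and 629.49 in replicate 1. On the opposite strand *Snapin* overlaps *Ilf2*, with 1 count in replicate 2 and 659 in replicate 1, and *Ap3m1* overlaps *Vcl*, with 173 counts in replicate 2 and 5904 in replicate 1. *Vps16* overlaps *Pced1a* on the opposite strand, with 79 counts in replicate 2 and 1360 in replicate 1. *Hps4* overlaps *Gm6583* on the opposite strand, with 4 counts in replicate 2 and 113 in replicate 1. The values of *Bloc1s1*, *Snapin*, *Ap3m1* and *Vps16* are uncertain to that extent. No transcript annotated as read-through overlapped a member.

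The wider trafficking list of 49 genes holds partners, paralogs and relatives of the members. Of these, 41 reached a mean of 1 TPM, with a median of 8.71 TPM in replicate 2, against 7.21 TPM in replicate 1. Of 38 whose mean count reached 100, 4 were at least 2-fold higher in replicate 2 and 9 at least 2-fold lower, beside the 15.7% and 33.8% of all genes above. The median log2 ratio was −0.05, against −0.30 over all genes.

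**Figure D4:**
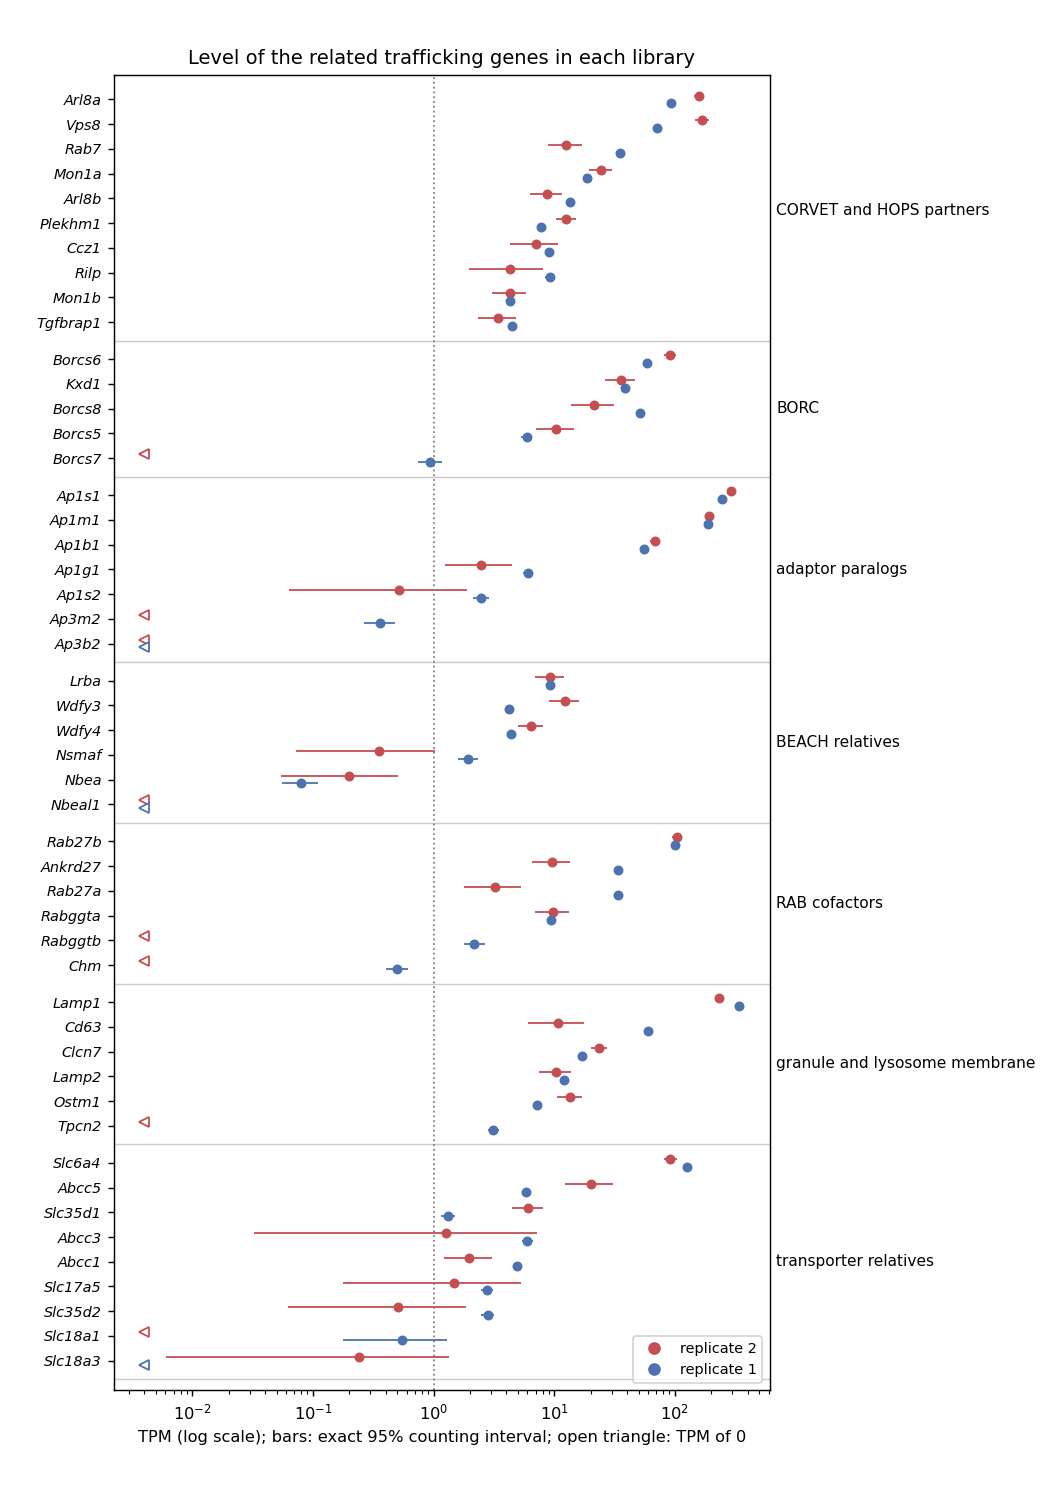
TPM (log axis) of the 49 related trafficking genes by group, replicate 2 in red above replicate 1 in blue, with exact 95% counting intervals and open triangles at a TPM of 0. *Ap1s1*, *Lamp1* and *Ap1m1* are the highest, and *Ap3b2* is at 0 in both libraries.

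Among partners of HOPS and CORVET, *Arl8a*, a GTPase that recruits HOPS to lysosomes, had the highest mean TPM, with 158.84 TPM in replicate 2, against 92.47 TPM in replicate 1. The CORVET subunit gene *Tgfbrap1* had the lowest mean TPM, with 3.41 TPM in replicate 2, against 4.47 TPM in replicate 1. In BORC, *Borcs6* led with 90.74 TPM in replicate 2, against 58.69 TPM in replicate 1, and *Borcs7* was the lowest with 0 TPM in replicate 2, against 0.94 TPM in replicate 1. Every group held at least 1 gene at or above 9 TPM in both libraries.

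The AP-1 sigma subunit *Ap1s1*, of the adaptor that acts at the trans-Golgi network, had 292.55 TPM in replicate 2, against 243.36 TPM in replicate 1, above every AP-3 subunit in both libraries. *Rab27b*, the GTPase of granule docking in platelets, had 103.89 TPM in replicate 2, against 100.02 TPM in replicate 1. *Chm*, an escort protein for RAB prenylation, had 0 counts in replicate 2 and 0.50 TPM in replicate 1. Among other BEACH genes *Lrba* had the highest mean TPM, with 9.16 TPM in replicate 2, against 9.26 TPM in replicate 1, and *Nbeal1* had the lowest, with 0 and 3 counts in those libraries. *Nbeal2* was thus above the 6 BEACH relatives listed and above *Lyst* in both libraries.

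Of the granule and lysosome membrane genes, *Lamp1* led with 231.42 TPM in replicate 2, against 341.11 TPM in replicate 1. *Tpcn2*, an endolysosomal channel, was the lowest, with 0 counts in replicate 2 and 340 counts (3.13 TPM) in replicate 1, and was at least 4.52-fold lower in replicate 2 by the limit of 3 counts, with an interval up to 0.273. Among the transporter relatives *Slc6a4* had the highest mean TPM, and *Slc18a3*, the vesicular acetylcholine transporter, had the lowest, with 1 count in replicate 2 and 0 counts in replicate 1.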

How the data were processed

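For each library the authors deposited a gene table and a transcript table on assembly mm10 with annotation GENCODE M4, per the deposited file lists. Which aligner and quantifier were used, and whether counting used strand, is not given in the sources used here. Expected counts, as the file headers name them, were deposited as estimated fragments per gene or transcript and can be fractional. The TPM values are the authors' levels per effective length, deposited both as maximum likelihood and as posterior mean values, beside a percent of each gene's level per transcript (the deposited isoform percent). The deposited posterior standard deviation of a member's count was at most 2.18 counts. Numeric identifier rows (26248) and control sequences (97) were left out, and they held 15 counts in replicate 1 and none in replicate 2.

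Symbols, transcript types and positions came from GENCODE M21 on GRCm38, by Ensembl identifier (42462 of 43346 genes). Expected counts were rounded for edgeR 4.0.16 (R 4.3.3), whose TMM factors were 0.859 for replicate 2 and 1.16 for replicate 1, from the 12132 genes whose mean count reached 10. Ratios have exact conditional 95% Clopper-Pearson intervals, and a 0 was set to 3 counts. Ratios of lists used genes whose mean count reached 100. DESeq2 1.42.0 supplied alternative size factors. The rest was run in Python 3.11.15 with pandas 2.3.3, numpy 2.4.6, scipy 1.17.1 and matplotlib 3.10.9, and the ratio step was tested on simulated data. TPM intervals are exact 95% Clopper-Pearson intervals of the gene's share of all counts in the library, put on the TPM scale.

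The members and lists were chosen with earlier results of these data known. All 34 members are named. From the list of 49 related genes the highest and lowest of each group by mean TPM are named, with *Ap3b2*, *Ap3m2* and *Slc18a1*. Transcripts are named where a member had at least 2, a mean of at least 5 TPM and a leading transcript that differed or held under 60% of the level. Alternatives were other scalings, GC and length trends, other count and TPM minimums, posterior means, TPM over protein coding genes and leaving out each library. Counting protein coding transcripts only, and a minimum of 10 CPM, were added after seeing the data.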

Additional observations from a re-analysis of the deposited data

How the results depend on the processing

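No paired analysis was possible because the labels give a single group. With 1 library left out, the median member level ranged from 6.66 to 8.325 TPM and that of BLOC-1 from 11.655 to 18.25 TPM. With posterior mean TPM the median level was 4.585 for BLOC-2, 3.285 for CHEVI and 45.9 for NBEAL2 and LYST, against 0.75, 2.76 and 51.8 as deposited by maximum likelihood. *Hps3*, with 0 counts in replicate 2, then had 3.44 TPM there. NBEAL2 and LYST had a median of 55.6 TPM over protein coding genes and 49.2 TPM on coding transcripts only, where CHEVI had 1.89 TPM. At a minimum of 5 TPM, 18 members were counted in place of 29, against 28.4% of protein coding genes, and over the 29 alone the median was 9.89 TPM. With total-count scaling 12 members were at least 2-fold lower, against 43.5% of genes, and the all-gene median log2 ratio was −0.74. At a mean of at least 10 CPM, 3 of 18 members were lower, against 24.2% of genes, and 5 were higher, against 20.1%. Their median log2 ratio was 0.26, against 0.03 over all genes. With DESeq2 size factors 7 of 28 members were higher, against 18.6% of genes, *Nbeal2* among them. The log2 ratio of *Nbeal2* was 1.06 there, 0.93 with TMM, 0.49 with total counts and 0.38 with the GC trend removed. Member ratios that left their exact interval numbered 13 with total counts and 8 with the GC trend removed. With DESeq2 size factors and with the length trend removed, 3 did so in each. At a minimum of 1 TPM, 4 of 15 members had the same leading transcript in both libraries, against 62.3% of 6577 genes. *Hps4*, *Rab38*, *Rab32* and *Slc35d3* were at least 2-fold higher, and *Bloc1s1*, *Bloc1s2* and *Ap3d1* at least 2-fold lower, under each scaling, trend and count minimum tried. The cause of these shifts was not tested. Depth limits replicate 2, where 27 members had fewer than 100 counts.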

Other observations

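The split between gene and coding levels seen in *Hps1* also appeared among the related genes, in examples picked after their values were seen. *Vps8*, a CORVET subunit gene, had 168.8 TPM in replicate 2, against 70.78 TPM in replicate 1, of which transcripts typed as protein coding held 0.32 TPM in replicate 2, against 0.31 TPM in replicate 1. *Abcc5*, a nucleotide exporter gene related to *Abcc4*, had 20.05 TPM in replicate 2, against 5.86 TPM in replicate 1, of which coding transcripts held 0 and 1.37 TPM in those libraries. *Borcs8* had 21.27 TPM in replicate 2, against 51.69 TPM in replicate 1, with 9.54 TPM on coding transcripts in replicate 2 and 22.00 TPM in replicate 1. *Rab27b* and *Ap1b1* had nearly all of their level on coding transcripts.

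The paralogs *Rab27a* and *Rab27b* differed between the libraries. *Rab27a*, the gene of ashen mice, had 15 counts in replicate 2 and 2443 in replicate 1, a ratio of 0.154 (exact 95% interval 0.086 to 0.254). Retained-intron transcripts held 22.5% of the *Rab27a* TPM in replicate 2, against 72.1% in replicate 1. On coding transcripts alone the scaled ratio of its counts was 0.309. *Rab27b* had 487 counts in replicate 2 and 10029 in replicate 1, a ratio of 1.22 (1.11 to 1.33). *Cd63*, a tetraspanin of dense granules and lysosomes, had 15 counts in replicate 2 and 1776 in replicate 1, a ratio of 0.212 (0.118 to 0.350). *Slc35d1*, a relative of *Slc35d3*, had 46 counts in replicate 2 and 213 in replicate 1, a ratio of 5.41 (3.85 to 7.47). Macrophage and granulocyte marker sums were also lower in replicate 2, and their part in the *Rab27a* and *Cd63* values was not tested.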
